A study of Mus musculus with 12 samples.

Results

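The 10 genes described here encode receptor chains for cytokines other than interleukin-2: Il7r, Il4ra, Il21r, Il6ra, Il6st, Il12rb1, Il12rb2, Il18r1, Ifngr1 and Ifngr2. They were taken by gene symbol from the deposited expression table, which lists 12885 gene symbols, and all 10 were present and passed the filter on low values (at least 1 RPKM in at least 2 libraries; 12726 genes tested). RPKM is a read count scaled to gene length and to library size, so each value is a share of its library's reads and not an amount per cell. Levels set side by side between genes also depend on the lengths used. For Il6ra the values imply a length of 3343 bases, where its annotated exons sum to 8642. The cells were naive CD8 T cells (CD44 low or negative) sorted from spleens of C57Bl/6 mice 6 weeks old. The mice were either wild type (WT) or homozygous for Ikaros-Zn4, a mutation of the zinc finger transcription factor Ikaros, called Zn4 below. Cells were taken directly (0 h) or were stimulated for 12 h or 24 h by plate-bound anti-CD3 and anti-CD28. These antibodies stand in for the antigen and the costimulatory signal. Each of the 6 groups (2 genotypes at 3 times) had 2 libraries, and 0 h cells had no antibody. Nothing in the labels says whether the 2 libraries of a group came from separate mice. The p-values therefore measure only the spread between these libraries, which may be technical. At 12 h the 2 libraries of each genotype differed in sex-linked RNA, given below, so neither pair measured the same RNA again.

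Cytokine receptors on T cells pass signals from a bound cytokine to Janus kinases, which phosphorylate STAT transcription factors. The interleukin-18 receptor instead belongs to the interleukin-1 receptor family and signals through MyD88 and IRAK kinases. The receptors for interleukins 7, 4 and 21 each pair a private chain with the common gamma chain, encoded by Il2rg. Interleukin-6 binds its own alpha chain and signals through gp130, the product of Il6st, which several cytokines share. Receptors for interleukin-12 and for interferon gamma are built from a pair of chains each, and in CD8 T cells interleukin-12 and interleukin-18 are known to act together to raise interferon gamma output. Naive CD8 T cells depend on interleukin-7 for survival, and loss of the interleukin-7 receptor after antigen encounter is a textbook feature of activation.

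Library totals ran from 24263907 to 33389808 reads. The listed genes held 73.8% to 76.3% of them in resting libraries and 82.5% to 86.1% in stimulated ones. The receptor genes were counted by at least 32 reads in every library, and the fewest were those of Ifngr2 in Zn4 cells at 12 h. Replicates correlated at r = 0.98 to 0.995 across genes. Ikzf1, which encodes Ikaros, was at 90.9 to 128 RPKM in WT and 114 to 139 RPKM in Zn4 libraries; a gene level cannot show the altered zinc finger, so it does not check the genotype. The labels give all mice as female. Against that, the summed level of 4 Y-linked genes was 38.9 RPKM in 1 WT library of 12 h (replicate 1). It was 43.4 and 21 in the Zn4 libraries of 12 h, and at most 0.0209 in the other 9. Xist, the RNA of X inactivation in female cells, read 0.0023 RPKM in that WT library and 52.6 in the other WT library of 12 h. In the Zn4 libraries of 12 h it read 0.0258 and 24.3, the latter beside the Y-linked sum of 21. At 0 h and 24 h Xist read 27.2 to 82.7. Sex-linked RNA and genotype were thus partly confounded at 12 h. The 2 Zn4 24 h libraries differed from each other in Ccr7, a naive T cell marker, at 1275 and 466 RPKM beside 195 to 359 in the other stimulated libraries and 624 to 781 at 0 h. Of other such markers Lef1 read 13.8 and 13.4 in those libraries, Tcf7 130 and 108, and S1pr1 3.42 and 2.68. The part of the Ccr7 difference in the results at 24 h was not tested beyond leaving out each library. The 7 CD8 T cell markers were all present and summed to 1270 to 1986 RPKM. Of 6 B cell markers only Cd79b was among the listed genes (0.298 to 6.62 RPKM, highest in WT 24 h). Of 6 myeloid markers only Itgam was listed (at most 1.16), and of 3 CD4 T cell markers only Cd4 (at most 2.09). The markers of natural killer, gamma-delta T, erythroid and platelet cells were not among the listed genes. RNA came from bulk samples, so a lower level cannot tell fewer cells expressing a gene from less RNA per cell.

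Because Ikaros binds DNA with its zinc fingers at sites whose core is GGGAA, the promoter windows of 3 receptor genes that differed between genotypes are shown, from RefSeq (GRCm38.p6), 250 bases before to 50 after the annotated start. Capitals mark GGGAA or its complement TTCCC.
Il18r1, chr1:40465302-40465601, plus strand: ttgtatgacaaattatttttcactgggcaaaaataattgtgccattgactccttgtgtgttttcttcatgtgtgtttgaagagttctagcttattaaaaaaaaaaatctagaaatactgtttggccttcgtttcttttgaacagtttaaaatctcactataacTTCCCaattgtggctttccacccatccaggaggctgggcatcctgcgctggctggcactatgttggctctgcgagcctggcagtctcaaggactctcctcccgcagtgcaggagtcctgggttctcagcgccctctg
Ifngr1, chr10:19591699-19591998, plus strand: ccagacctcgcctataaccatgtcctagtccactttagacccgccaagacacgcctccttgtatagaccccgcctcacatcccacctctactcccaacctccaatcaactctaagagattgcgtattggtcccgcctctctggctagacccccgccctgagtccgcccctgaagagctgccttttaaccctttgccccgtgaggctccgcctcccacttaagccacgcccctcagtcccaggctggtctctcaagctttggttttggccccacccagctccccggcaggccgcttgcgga
Il12rb2, chr6:67376139-67376438, minus strand: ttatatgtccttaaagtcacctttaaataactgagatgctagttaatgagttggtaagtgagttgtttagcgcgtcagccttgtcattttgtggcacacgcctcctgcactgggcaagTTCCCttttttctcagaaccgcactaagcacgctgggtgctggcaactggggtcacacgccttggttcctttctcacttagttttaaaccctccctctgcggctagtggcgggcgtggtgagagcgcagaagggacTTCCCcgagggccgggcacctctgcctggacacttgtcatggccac
The Il18r1 window held 1 GGGAA, within the longer TGGGAA, the Il12rb2 window held 2 GGGAA and 1 TTCNNNGAA (the letters of an interferon gamma activated site), and the Ifngr1 window held neither motif. Windows were found for 9 of the 10 genes, 11 in all since Il18r1 had 3 starts; Il12rb1 is named only. Searched on both strands, GGGAA was in 62.7% of 32851 RefSeq promoter windows of the same length, TGGGAA in 25.6% and TTCNNNGAA in 8.3%. TTCNNNGAA also occurred in the Il7r window and in the window of another Il18r1 start. These matches describe letters and are not evidence of binding.

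Stimulation lowered 8 of the 10 receptor transcripts in both genotypes at both times and raised Il12rb1. The comparisons with 0 h at 12 h and at 24 h share their 0 h libraries. In WT cells 1 receptor was higher and 8 were lower at 12 h than at 0 h (limma on log2(RPKM + 1), Benjamini-Hochberg adjusted p under 0.05), where 70.2% of all tested genes were called, 43.1% higher and 27% lower. At 24 h the WT counts were again 1 higher and 8 lower, against 73.9% of all genes called, 48.3% higher and 25.6% lower. In Zn4 cells 1 was higher and 8 lower at 12 h (73% of all genes called, 43.5% higher and 29.6% lower). At 24 h 2 were higher and 8 lower (74.7% of all genes called, 48.7% higher and 26% lower). The median log2 difference of the 10 receptors ran from -2.09 in WT at 12 h to -2.99 in Zn4 at 24 h, beside medians over all tested genes of 0.20 and 0.31. Scaling the libraries by median ratios moved the median of all genes in WT cells at 12 h from 0.20 to -0.02, and the split of calls from 5488 higher and 3440 lower to 4363 and 4527. At 24 h it moved from 6153 and 3256 to 4708 and 4634. In Zn4 cells the split moved from 5533 and 3763 to 4532 and 4703 at 12 h, and from 6194 and 3315 to 4767 and 4682 at 24 h. The direction of every called receptor was the same under both scalings.

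**Figure D1:**
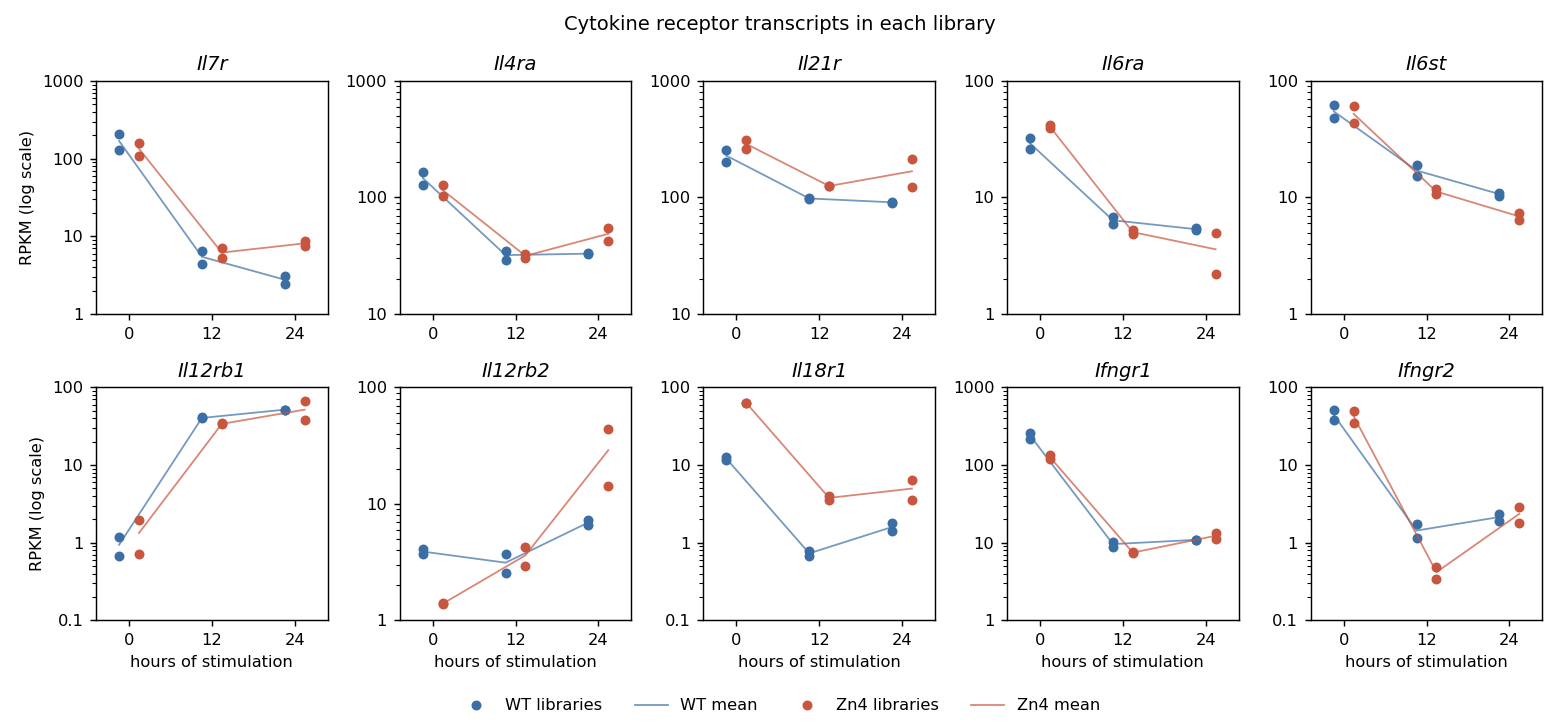
RPKM (log axis) of the 10 receptor genes in each library by hours of stimulation, with WT in blue and Zn4 in red; points are libraries and lines join the means of 2. Il12rb1 is the one receptor that was higher after stimulation in both genotypes at both times, and the Zn4 points of Il18r1 and Il21r lie above the WT points at every time.

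Positions below are in GRCm38 and each gene is annotated as protein-coding. Il7r (ENSMUSG00000003882.5, chr15:9505788-9530176, minus strand), the private chain of the interleukin-7 receptor, fell furthest in WT cells. WT libraries read 129 and 209 RPKM at 0 h, 4.35 and 6.55 at 12 h, and 3.1 and 2.42 at 24 h, while Zn4 libraries read 108 and 161, 5.25 and 7.09, and 8.79 and 7.45. Resting and 12 h libraries of the genotypes overlapped, and at 24 h both Zn4 libraries lay above both WT libraries. At 0 h each Zn4 library lay below the WT library of the same number. The resting difference was -0.32 ± 0.27 (adjusted p = 0.618) in the main fit, and passed with a replicate block at each time (0.0351). By 24 h the WT mean was 61.4-fold lower than at 0 h (log2 -5.47 ± 0.27 SE, adjusted p = 1.37e-07), and the Zn4 mean was 16.5-fold lower (log2 -3.87 ± 0.27, adjusted p = 1.06e-06). At 24 h Il7r was 2.94-fold higher in Zn4 than in WT cells (log2 1.28 ± 0.27, adjusted p = 0.0104), and the call ended without WT 24 h replicate 2 or Zn4 24 h replicate 1 (adjusted p = 0.0819 and 0.0853). The 0 to 24 h responses of the genotypes differed by 1.60 ± 0.39 (adjusted p = 0.0356). This call ended in 5 of the 12 fits that left out 1 library: WT 0 h replicate 2, either WT 24 h library, Zn4 0 h replicate 1 and Zn4 24 h replicate 1 (adjusted p 0.0762 to 0.136). It also ended in a fit of only the libraries compared (0.0672). Between 12 h and 24 h the WT difference of -0.76 did not pass the test (adjusted p = 0.0734), though it did without either WT 0 h library (0.0418), with a pseudocount of 0.1 (-0.94, 0.0483), with quantile normalization (-0.91, 0.0286) and in a fit of only those libraries (0.0402).

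Il4ra (ENSMUSG00000030748.9, chr7:125552120-125579474, plus strand) encodes the alpha chain that binds interleukin-4. It read 166 and 128 RPKM in WT cells at 0 h, 35 and 29 at 12 h, and 32.8 and 33.1 at 24 h. The Zn4 libraries read 129 and 103, 30.3 and 32.8, and 55.2 and 42.3, so the genotypes overlapped at 0 h and 12 h and were apart at 24 h. Il4ra fell 4.59-fold by 12 h in WT (log2 -2.16 ± 0.17, adjusted p = 2.48e-06) and 3.66-fold in Zn4 cells (log2 -1.83 ± 0.17, adjusted p = 6.41e-06). In Zn4 cells it then rose by 0.60 ± 0.17 to 24 h (adjusted p = 0.0224). This call ended without either Zn4 12 h library (0.122 and 0.0621) or without Zn4 24 h replicate 1 (0.153), and with median-ratio scaling (0.0512) or the Y-linked sum as a covariate (0.134). The Zn4 minus WT difference at 24 h, 0.54 ± 0.17, missed the threshold (adjusted p = 0.0528) and passed it without any of 5 single libraries: each of the 4 at 0 h and Zn4 24 h replicate 2 (0.0293 to 0.0456). It also passed with limma-voom on whole reads (0.55, 0.0455). The difference in response at 24 h was 0.88 ± 0.24 (adjusted p = 0.0551), and passed without WT 0 h replicate 2 or Zn4 24 h replicate 2 (0.0284 to 0.0367).

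Il21r (ENSMUSG00000030745.9, chr7:125603429-125633570, plus strand), the private chain of the interleukin-21 receptor, kept the highest level of the set after stimulation. WT libraries read 200 and 257 RPKM at 0 h, 96.5 and 99.7 at 12 h, and 90.2 and 91.7 at 24 h. Zn4 libraries read 262 and 314, 126 and 125, and 214 and 122, above both WT libraries at each time. Stimulation lowered Il21r by 1.20 ± 0.22 (log2) in WT and 1.19 ± 0.22 in Zn4 cells at 12 h (adjusted p = 0.00088 and 0.000864). The genotype difference passed the test at 24 h (log2 0.82 ± 0.22, adjusted p = 0.0294) and not at 0 h (0.34 ± 0.22, adjusted p = 0.483) or 12 h (0.35 ± 0.22, adjusted p = 0.377). At 24 h the call ended without either WT 24 h library or without Zn4 24 h replicate 1, the library at 214 RPKM (adjusted p 0.126 to 0.149), and in a fit of only the 24 h libraries (0.115). Without that library the difference was 0.42. Leaving out the other Zn4 24 h library gave a rise of 0.76 between 12 h and 24 h in Zn4 cells (adjusted p = 0.00822; 0.36 and 0.247 with both) and a difference in the 0 to 24 h response of 0.89 (0.0277; 0.48 and 0.401 with both).

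Their shared partner Il2rg, the common gamma chain, moved little beside these falls: it was at 138 to 142 RPKM in resting WT, 172 to 213 at 12 h and 182 to 188 at 24 h, and at 123 to 145 RPKM in the 6 Zn4 libraries. Within libraries, the ratio of Il2rg to Il7r was 0.658 to 1.1 in resting WT and 60.8 to 75.1 in WT at 24 h, against 14.6 to 18.1 in Zn4 at 24 h. Il2rg was lower in Zn4 cells at 24 h (log2 -0.49 ± 0.10, adjusted p = 0.00872), and the call ended without either WT 24 h library or Zn4 24 h replicate 1 (at most 0.0755). At 12 h the difference was -0.44 ± 0.10 (adjusted p = 0.0197). That call ended without WT 12 h replicate 2, without either Zn4 12 h library, with the Y-linked sum as a covariate and in a fit of only the 12 h libraries (adjusted p at most 0.145). Il2rg at 24 h, and Il18rap, Osm and Jak3 at 24 h below, are outside the rule for named genes and were chosen after their values were seen. The same holds for Tollip, Myd88, Irak1 and Irak4 at 24 h below.

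Il6ra (ENSMUSG00000027947.11, chr3:89864059-89913196, minus strand) and Il6st (ENSMUSG00000021756.12, chr13:112464070-112510086, plus strand), the ligand-binding and the gp130 chains of the interleukin-6 receptor, fell together. Il6ra read 25.9 and 32.4 RPKM at 0 h in WT cells, 6.85 and 5.9 at 12 h, and 5.44 and 5.25 at 24 h. In Zn4 cells it read 41.9 and 39.2, 4.85 and 5.24, and 2.2 and 4.98: above WT when resting and below WT after stimulation, with no overlap at any time. None of these genotype differences passed the test (log2 0.47 ± 0.24 at 0 h, -0.29 ± 0.24 at 12 h and -0.54 ± 0.24 at 24 h; adjusted p = 0.348, 0.527 and 0.157). The fall by 24 h was 5.46-fold in WT (log2 -2.24 ± 0.24, adjusted p = 1.85e-05) and 11.3-fold in Zn4 cells (log2 -3.25 ± 0.24, adjusted p = 1.4e-06), and the difference between those falls was -1.01 ± 0.34 (adjusted p = 0.109). Zn4 24 h replicate 2, at 4.98 RPKM, decided 3 values. Without it Il6ra was lower in Zn4 at 24 h (-0.99, adjusted p = 0.00282), its 24 h response differed (-1.46, 0.00302) and it fell between 12 h and 24 h (-0.92, 0.00291; -0.47 and 0.169 with both). At 12 h the response difference of -0.76 (adjusted p = 0.273) passed without either Zn4 24 h library (0.0394 and 0.0401).

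Il6st read 47.7 and 62 RPKM in resting WT and 43.7 and 60.8 in resting Zn4 cells, which overlapped. It then read 18.9 and 15.2 in WT against 11.8 and 10.7 in Zn4 at 12 h, and 10.4 and 11 against 6.44 and 7.31 at 24 h, with the Zn4 libraries below at both times. Il6st fell 5.12-fold in WT (log2 -2.24 ± 0.18, adjusted p = 2.15e-06) and 7.6-fold in Zn4 cells (log2 -2.74 ± 0.18, adjusted p = 5.54e-07) by 24 h. The difference between those falls did not pass the limma test (-0.50 ± 0.25, adjusted p = 0.262). Il6st was the 1 receptor whose decrease from 12 h to 24 h was called in both genotypes. It was lower in Zn4 than in WT cells at 24 h (log2 -0.58 ± 0.18, adjusted p = 0.0472). The call ended in 8 of 12 fits without 1 library, those of 12 h and 24 h in either genotype (0.0543 to 0.238), with median-ratio scaling (0.061) and with the Y-linked covariate (0.0515). The 12 h difference of -0.55 ± 0.18 did not pass (adjusted p = 0.0714), and did without either Zn4 0 h library (0.0379 and 0.0381). From 12 h to 24 h the changes were -0.62 ± 0.18 in WT (adjusted p = 0.0314) and -0.64 ± 0.18 in Zn4 cells (adjusted p = 0.0203). The WT call ended without WT 12 h replicate 1 or either WT 24 h library (0.119 to 0.207). The Zn4 call ended without either Zn4 12 h library or Zn4 24 h replicate 1 (0.0524 to 0.119). Both ended with the Y-linked covariate (0.204 and 0.557).

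Il12rb1 (ENSMUSG00000000791.9, chr8:70808449-70821424, plus strand), the chain that the interleukin-12 and interleukin-23 receptors share, was nearly off in resting cells and rose in both genotypes. WT libraries read 1.2 and 0.683 RPKM at 0 h, 41.1 and 39.9 at 12 h, and 52 and 51.6 at 24 h. Zn4 libraries read 1.95 and 0.722, 33.4 and 34.5, and 37.6 and 66. The rise by 12 h was 43.2-fold in WT (log2 4.43 ± 0.28, adjusted p = 6.38e-07) and 25.4-fold in Zn4 cells (log2 3.95 ± 0.28, adjusted p = 1.11e-06). These folds divide by 0 h means of 0.94 and 1.34 RPKM. The difference between the rises did not pass the limma test (-0.48 ± 0.40, adjusted p = 0.598). Genotype differences were 0.23 ± 0.28, -0.25 ± 0.28 and -0.05 ± 0.28 at 0, 12 and 24 h (adjusted p = 0.754, 0.657 and 0.923), and the libraries overlapped at 0 h and 24 h. The difference of 0.54 between 12 h and 24 h in Zn4 cells (adjusted p = 0.174) passed without Zn4 24 h replicate 1 (0.94, 0.0424).

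Il12rb2 (ENSMUSG00000018341.12, chr6:67291318-67376188, minus strand), the signalling chain that completes the interleukin-12 receptor, took a different course in Zn4 cells. It read 3.72 and 4.08 RPKM in resting WT, 3.69 and 2.57 at 12 h, and 6.63 and 7.24 at 24 h. Zn4 libraries read 1.37 and 1.41 at 0 h, below both WT libraries, and 2.95 and 4.29 at 12 h, overlapping WT. At 24 h they read 43.6 and 14.3, above both. In Zn4 cells Il12rb2 rose 20.8-fold from 0 h to 24 h (log2 3.45 ± 0.39, adjusted p = 2.8e-05) and by 2.51 ± 0.39 from 12 h to 24 h (adjusted p = 0.00117), and no call on either ended when any single library was left out. Without Zn4 24 h replicate 1 or 2 these rises were 2.68 or 4.22 from 0 h and 1.74 or 3.28 from 12 h on the log2 scale. The WT differences from 0 h were -0.26 ± 0.39 at 12 h (adjusted p = 0.575) and 0.69 ± 0.39 at 24 h (0.135). At 24 h Il12rb2 was 4.17-fold higher in Zn4 than in WT cells (log2 1.72 ± 0.39, adjusted p = 0.0141), and the 0 to 24 h responses differed by 2.76 ± 0.55 (adjusted p = 0.0182). Both calls ended without either WT 24 h library (0.0689 to 0.0862 and 0.0658 to 0.0743) and in fits of only the libraries compared (0.0955 and 0.0553). Their size rested on the Zn4 24 h libraries: without replicate 1 the genotype difference was 0.95 (adjusted p = 0.0289) and the response difference 1.98 (0.00769), and without replicate 2 they were 2.49 (0.000164) and 3.53 (0.000298).

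The 2 Zn4 24 h libraries, 43.6 against 14.3 RPKM, set much of the spread of Il12rb2 in the fit, and without either of them 5 further differences passed the test at the same size. The first was the resting difference between genotypes (-1.04 ± 0.39, adjusted p = 0.192, and 0.00973 and 0.00986 without 1 of them). In WT cells they were the differences of 24 h from 0 h (0.69, with 0.00563 and 0.00573) and from 12 h (0.95, adjusted p = 0.112, with 0.005 and 0.0051). In Zn4 cells it was the difference of 12 h from 0 h (0.94, adjusted p = 0.054, with 0.0011 and 0.00112), and last came the difference in 12 h response (1.20, adjusted p = 0.295, with 0.0253 and 0.0258). As a pair of chains, Il12rb1 exceeded Il12rb2 by 7.13 to 15.5 times in stimulated WT libraries and by 8.04 to 11.3 times in Zn4 at 12 h, while in Zn4 at 24 h the ratio was 0.864 and 4.62.

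Il18r1 (ENSMUSG00000026070.15, chr1:40465552-40500854, plus strand), the ligand-binding chain of the interleukin-18 receptor, was the 1 receptor that differed between genotypes at all 3 times. It read 12.6 and 11.6 RPKM in resting WT cells against 63.3 and 62.9 in resting Zn4 cells. At 12 h it read 0.667 and 0.794 in WT against 3.54 and 4.03 in Zn4, and at 24 h 1.42 and 1.77 against 3.59 and 6.38. Zn4 libraries were thus above WT libraries at each time, by 5.23-fold at 0 h (log2 2.30 ± 0.19, adjusted p = 0.00012), 5.18-fold at 12 h (log2 1.47 ± 0.19, adjusted p = 0.00106) and 3.13-fold at 24 h (log2 1.17 ± 0.19, adjusted p = 0.00275). All 3 calls were made in each of 21 other fits, with adjusted p at most 0.0192, 0.011 and 0.0495. At 12 h the WT library with Y-linked RNA (0.667 RPKM) and the one without it (0.794) were both below the Zn4 libraries, and with the Y-linked sum as a covariate the difference was 1.52 (adjusted p = 0.00689).

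Stimulation lowered Il18r1 in both genotypes: 16.5-fold in WT and 16.7-fold in Zn4 cells at 12 h, and 7.56-fold and 12.7-fold at 24 h. On the log2(RPKM + 1) scale, which damps change near 1 RPKM, the 12 h falls were -2.92 ± 0.19 and -3.75 ± 0.19 (adjusted p = 7.38e-07 and 1.25e-07). The difference in response was -0.83 ± 0.27 at 12 h (adjusted p = 0.122), which passed without either Zn4 24 h library (0.0167 and 0.017). At 24 h it was -1.13 ± 0.27 (adjusted p = 0.0331). This call ended with a pseudocount of 0.1 (-0.84, 0.176), with limma-voom on whole reads (-0.81, 0.163), with the Y-linked covariate (0.052) and in a fit of only those libraries (0.0886). It also ended without any 1 of the 10 libraries other than the Zn4 24 h pair (0.0527 to 0.134). The WT difference between 12 h and 24 h was 0.58 ± 0.19 (adjusted p = 0.0521; 0.00556 and 0.00568 without either Zn4 24 h library). In Zn4 cells the later difference of 0.28 (adjusted p = 0.287) passed without Zn4 24 h replicate 1 (0.63, 0.0102).

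The other chain of that receptor, Il18rap, was low throughout at 0.323 to 2.74 RPKM. It did not pass the test between genotypes at any time (log2 0.25 ± 0.24, 0.37 ± 0.24 and 0.13 ± 0.24 at 0, 12 and 24 h; adjusted p = 0.676, 0.397 and 0.76). Il18r1 exceeded Il18rap by 37.5 and 80.1 times in resting Zn4 cells and by 14 and 14.5 times in resting WT cells. Of 7 IL-18 signalling genes (Myd88, Irak1 to Irak4, Traf6 and Tollip), 4 were higher and 1 lower in Zn4 at 24 h, where 9.4% of all genes were called higher and 9.96% lower, with a median of 0.57 beside -0.02 over all genes. Examples are Irak2, an IRAK-family kinase, at 4.74 and 4.95 RPKM in WT against 13.8 and 14.5 in Zn4 (log2 1.37 ± 0.34, adjusted p = 0.0215), and Traf6, the ubiquitin ligase downstream of them, at 13 and 12.8 against 23.6 and 20.2 (0.72 ± 0.15, 0.00937). The others called higher were Irak3 and Tollip. Irak3 was under 1 RPKM in every 24 h library, at 0.0785 and 0.048 in WT against 0.797 and 0.468 in Zn4. Tollip read 12.9 and 13.5 against 22.1 and 18.2. The count of calls gives no direction for signalling through this receptor, which was not tested. Myd88, Irak1 and Irak4 lay below WT in Zn4. Myd88 read 27.4 and 27 against 22.4 and 23.6. Irak1 read 30.7 and 31.4 against 26.6 and 29.4, and Irak4 4.04 and 4.31 against 2.4 and 2.8. Without WT 24 h replicate 1, WT 24 h replicate 2 or Zn4 24 h replicate 1, a total of 0 of the 7 were called, and Irak2 was also not called without Zn4 24 h replicate 2 (adjusted p at most 0.11).

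**Figure D2:**
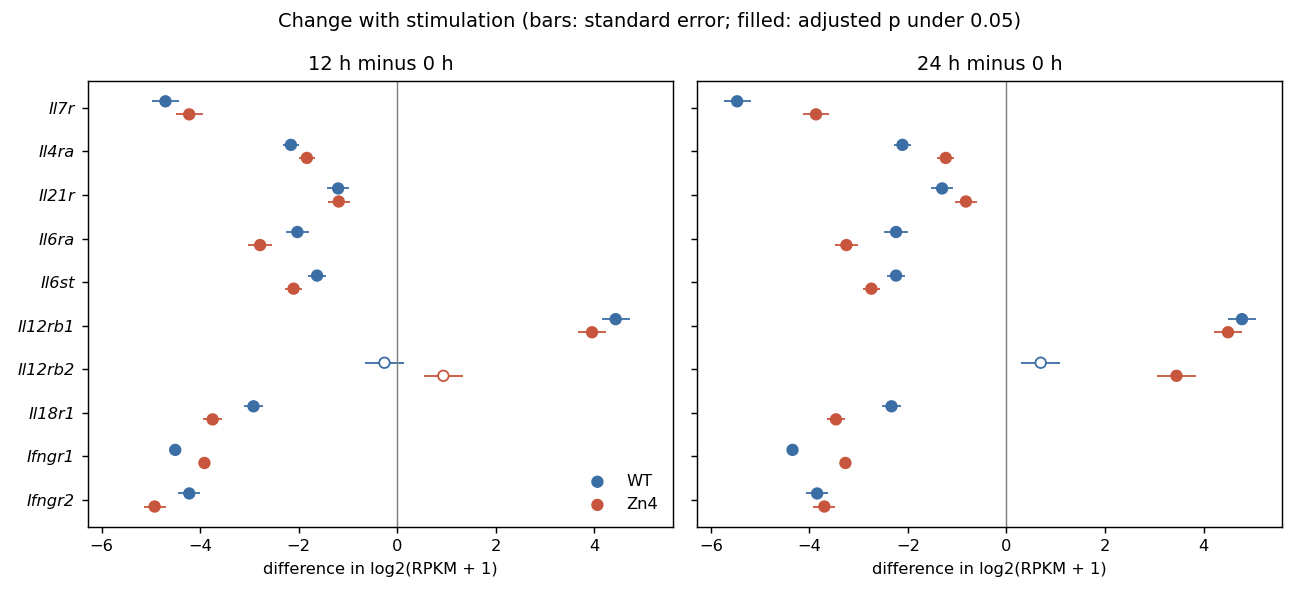
Difference in log2(RPKM + 1) from 0 h at 12 h (left) and 24 h (right) for the 10 receptors, WT in blue and Zn4 in red, with standard errors; filled points have an adjusted p under 0.05. The 8 receptors with negative values in both genotypes contrast with Il12rb1, at 3.95 to 4.78, and Il12rb2 is filled only in Zn4 cells at 24 h.

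Ifngr1 (ENSMUSG00000020009.13, chr10:19591949-19610229, plus strand), the ligand-binding chain of the interferon gamma receptor, was among the most abundant receptors at rest. It read 261 and 220 RPKM in resting WT cells and 133 and 120 in resting Zn4 cells, with no overlap. After stimulation the levels came close together: 10.3 and 8.91 in WT against 7.43 and 7.51 in Zn4 at 12 h, and 11 and 10.8 against 13.5 and 11.1 at 24 h. The resting level was 1.9-fold lower in Zn4 cells (log2 -0.92 ± 0.12, adjusted p = 0.00175), a call kept without each library in turn (at most 0.0184) and lost in a fit of only the 4 libraries of 0 h (0.102). Ifngr1 fell 25-fold by 12 h in WT (log2 -4.50 ± 0.12, adjusted p = 1.25e-08) and 16.9-fold in Zn4 cells (log2 -3.91 ± 0.12, adjusted p = 1.35e-08). The Zn4 minus WT difference in response was 0.59 ± 0.17 at 12 h (adjusted p = 0.0817) and 1.07 ± 0.17 at 24 h (adjusted p = 0.00655), the latter called in each of 21 other fits (at most 0.0375). In Zn4 cells Ifngr1 rose by 0.64 ± 0.12 from 12 h to 24 h (adjusted p = 0.00297).

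Ifngr2 (ENSMUSG00000022965.8, chr16:91547072-91565623, plus strand), the signal-transducing chain, overlapped between genotypes in resting cells, at 50.6 and 38.3 RPKM in WT and 50.5 and 34.8 in Zn4. It then read 1.14 and 1.73 in WT and 0.343 and 0.493 in Zn4 at 12 h, where the Zn4 libraries lay below. At 24 h it read 1.93 and 2.36 in WT and 2.89 and 1.82 in Zn4, where they overlapped. The 12 h fall was 31-fold in WT (log2 -4.22 ± 0.23, adjusted p = 2.26e-07) and 102-fold in Zn4 cells (log2 -4.92 ± 0.23, adjusted p = 7.23e-08). The difference between these falls did not pass the limma test (-0.70 ± 0.32, adjusted p = 0.279). The 102-fold value rests on a Zn4 mean of 0.418 RPKM at 12 h, where the log2(RPKM + 1) scale damps change. At 12 h the genotype difference was -0.77 ± 0.23 and missed the threshold (adjusted p = 0.0535). It passed with a pseudocount of 0.1 (-1.55, 0.00774) and with limma-voom (-1.79, 0.0443). It also passed without any 1 library of 0 h or either Zn4 24 h library (0.037 to 0.0477). In Zn4 cells Ifngr2 rose by 1.23 ± 0.23 from 12 h to 24 h (adjusted p = 0.00288), a call that ended with the Y-linked covariate (0.89, 0.21), both Zn4 12 h libraries being ones with Y-linked RNA. The ratio of Ifngr1 to Ifngr2 was 15.2 and 21.6 in Zn4 cells at 12 h and 2.64 to 9.04 in every other group.

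Ifng, the ligand of this receptor, went the other way. It read 0.0971 and 0.102 RPKM in resting WT and 0.443 and 0.399 in resting Zn4 cells, 13.4 and 9.7 against 375 and 570 at 12 h, and 18.7 and 18.5 against 224 and 278 at 24 h. The Zn4 excess was 5.22 ± 0.20 at 12 h (adjusted p = 1.13e-06) and 3.67 ± 0.20 at 24 h (adjusted p = 1.01e-05), and the groups were far apart at both times.

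Of 24 textbook interferon gamma targets, 22 were tested, among them Irf1, guanylate-binding proteins, immunity-related GTPases, and the immunoproteasome and peptide-loading genes. The guanylate-binding proteins and these GTPases are families of close copies, so how reads were divided among single members is uncertain. In Zn4 cells 4 of the 22 were higher at rest, 19 were lower than in WT at 12 h, and 11 were lower at 24 h, where 3.76%, 8.28% and 9.96% of all genes were called in those directions. The list medians were 0.42, -1.09 and -0.57, beside -0.02, -0.01 and -0.02 for all tested genes. Gbp2, a guanylate-binding protein, read 97 and 135 RPKM in WT against 25 and 33.4 in Zn4 at 12 h (log2 -1.95 ± 0.25, adjusted p = 0.000972) and 280 and 283 against 80.5 and 112 at 24 h (-1.56 ± 0.25, 0.00249). Tapbp, which loads peptides onto class I molecules, was lower by 1.54 ± 0.16 at 12 h (adjusted p = 0.000342), and Gbp4 by 1.62 ± 0.23 (0.00162). Iigp1, an immunity-related GTPase, was higher in resting Zn4 cells, at 14.3 and 19.7 RPKM against 0.813 and 1.91 (2.95 ± 0.30, 0.000405). The number lower ran from 13 (without Zn4 12 h replicate 1) to 21 at 12 h over the other fits, and from 7 (without either WT 24 h library or Zn4 24 h replicate 1) to 14 at 24 h. The number higher at rest ran from 1 (only the 0 h libraries) to 10. The differences in response from 0 h were lower in Zn4 cells for 19 targets at 12 h (13 without WT 12 h replicate 2) and 14 at 24 h (8 without WT 24 h replicate 2), where 3.58% and 4.35% of all genes were called lower. Both Zn4 12 h libraries held Y-linked RNA, and with the Y-linked sum as a covariate 14 targets were lower at 12 h and 10 at 24 h.

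**Figure D3:**
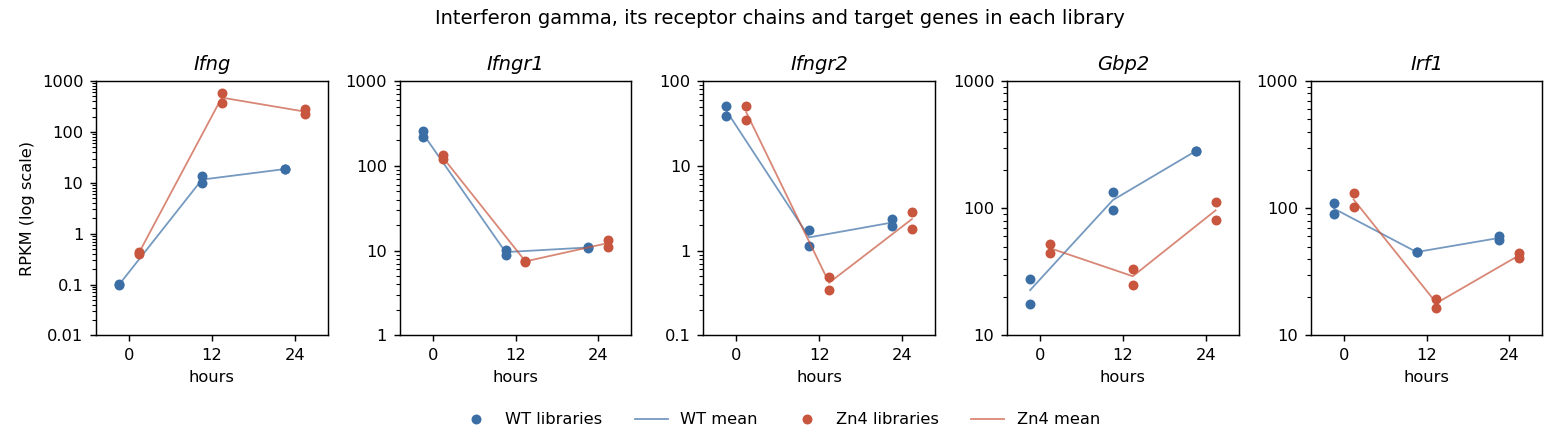
RPKM (log axis) of Ifng, its receptor chains and the targets Gbp2 and Irf1 in each library by hours of stimulation, WT in blue and Zn4 in red; points are libraries and lines join means of 2. Ifng in Zn4 cells is at 375 and 570 RPKM at 12 h, while Ifngr2, Gbp2 and Irf1 are each below both WT libraries there.

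Between genotypes, 2 of the 10 receptors were called at 0 h (1 higher in Zn4, Il18r1, and 1 lower, Ifngr1), against 5.72% of all tested genes (3.76% higher and 1.96% lower). At 12 h 1 was called, Il18r1, against 13.1% of all genes (4.85% higher and 8.28% lower). At 24 h 5 were called, against 19.4% of all genes: Il7r, Il21r, Il12rb2 and Il18r1 higher (9.4% of all genes were called higher) and Il6st lower (9.96% called lower). The median difference of the 10 receptors was -0.07, -0.13 and 0.35 at 0, 12 and 24 h. For the difference in response by 12 h the limma test called 0 receptors (5.12% of all genes called, 1.54% higher and 3.58% lower), with 2 at an unadjusted p under 0.05 and 0 by limma-voom. By 24 h it called 4, Il7r, Il12rb2 and Ifngr1 with positive and Il18r1 with negative differences, against 8.24% of all genes (3.88% higher and 4.35% lower). Between 12 h and 24 h, 1 receptor changed in WT cells (lower; 24% of all genes called, 17% higher and 6.94% lower). In Zn4 cells 5 changed (33.6% called, 22.6% higher and 11% lower), where Il4ra, Il12rb2, Ifngr1 and Ifngr2 rose and Il6st fell.

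**Figure D4:**
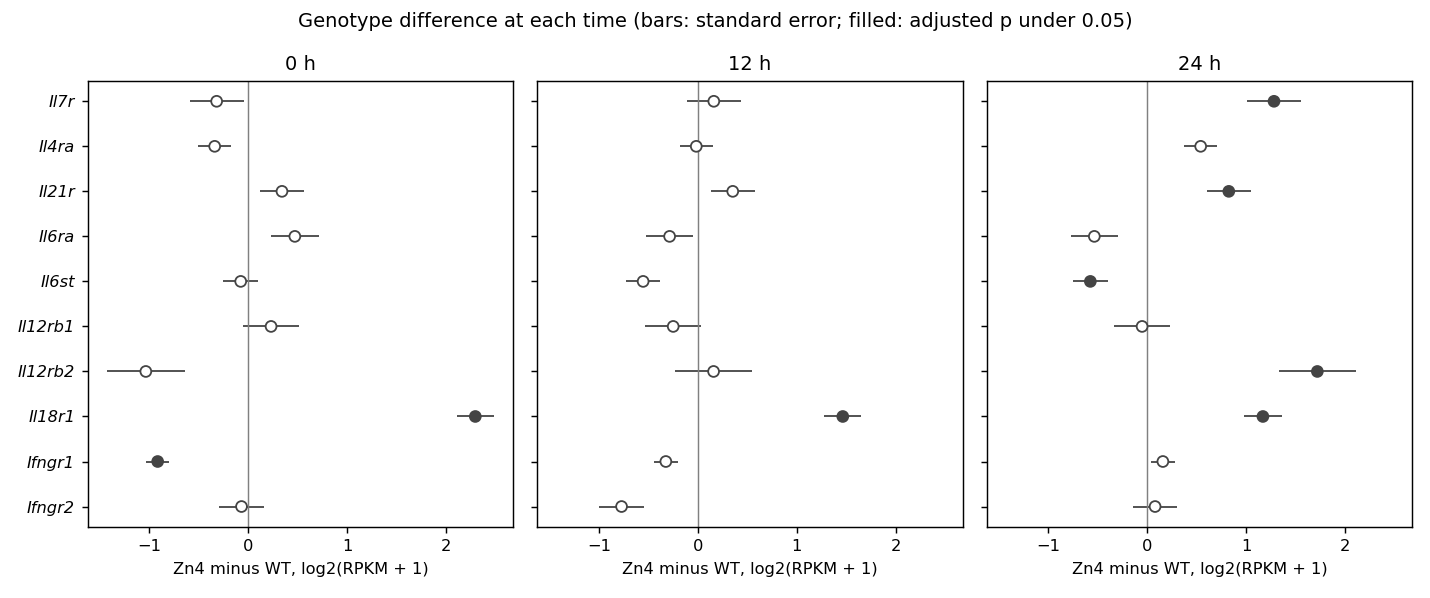
Zn4 minus WT difference in log2(RPKM + 1) for the 10 receptors at 0, 12 and 24 h, with standard errors; filled points have an adjusted p under 0.05. Il18r1 is filled at all 3 times (2.30, 1.47 and 1.17), Ifngr1 only at 0 h, and Il7r, Il21r, Il12rb2 and Il6st only at 24 h; whether a difference changed between times was tested only through the response comparisons.

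In order of level, resting WT cells had Ifngr1, Il21r, Il7r and Il4ra at the top with group means of 241, 228, 169 and 147 RPKM, neighbours whose libraries overlapped. Il6st and Ifngr2 followed at 54.9 and 44.4 RPKM, also overlapping, then Il6ra at 29.1, Il18r1 at 12.1, Il12rb2 at 3.9 and Il12rb1 at 0.94, each apart from the next. Resting Zn4 cells had Il21r at the top (288 RPKM) and apart from the next, then Il7r, Ifngr1 and Il4ra (134, 127 and 116), which overlapped, and Il18r1 in the fifth place (63.1), apart from both neighbours. After stimulation the order was led by Il21r, Il12rb1 and Il4ra in both genotypes at both times, with means of 98.1, 40.5 and 32 in WT and 126, 34 and 31.6 RPKM in Zn4 at 12 h. The lowest were Il18r1 in stimulated WT cells (0.731 and 1.6 RPKM at 12 h and 24 h) and Ifngr2 in stimulated Zn4 cells (0.418 and 2.36). Il12rb2 moved from the ninth place in Zn4 at 12 h (3.62) to the fourth at 24 h (28.9), its libraries overlapping those of Il4ra.

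Across the 29 partner and other cytokine receptor chains, 17 were tested, and the same comparison of 12 h with 0 h called 3 higher and 8 lower in WT (43.1% and 27% of all genes) and 2 higher and 9 lower in Zn4 cells (43.5% and 29.6%). In WT the number higher was 1 with median-ratio scaling or quantile normalization, and the other fits gave 2 to 4 higher and 6 to 9 lower. In Zn4 cells the other fits gave 2 to 3 higher and 8 to 11 lower. Il15ra and Il1r2 passed the filter only through stimulated libraries, so their calls as higher carry no weight in these counts. Tgfbr2, a chain of the receptor for transforming growth factor beta, read 155 and 127 RPKM at 0 h and 23.2 and 23.8 at 12 h in WT, and 184 and 131 then 19 and 20.3 in Zn4. Il17ra, a chain of the interleukin-17 receptor, fell by 2.06 ± 0.16 and 2.37 ± 0.16 on the log2 scale. Il15ra, which presents interleukin-15, read 0.958 and 0.556 RPKM at 0 h and 8.81 and 8.5 at 12 h in WT. In Zn4 it read 1.4 and 0.585, then 18.7 and 17.1. These values are given as a description. Between genotypes at 24 h, 4 were higher and 2 lower in Zn4 (list median 0.15), where 9.4% and 9.96% of all genes were called higher and lower. These became 2 higher and 1 lower without either WT 24 h library or without Zn4 24 h replicate 1, and 6 and 2 without Zn4 24 h replicate 2. Il10ra, the ligand-binding chain of the interleukin-10 receptor, read 2.09 and 1.63 in WT against 9.29 and 6.5 in Zn4 at 24 h (log2 1.62 ± 0.20, adjusted p = 0.000668) with no call lost in other fits. Tgfbr3, a coreceptor, was higher in Zn4 at 0, 12 and 24 h by 0.94, 0.66 and 0.80 ± 0.12 (adjusted p = 0.00123, 0.00508 and 0.00148), lost only at 0 h in a fit of those libraries (0.0633).

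Of 17 ligand genes only Ifng, Lif, Il23a and Osm were listed, and Ifng, Lif and Osm were called higher in Zn4 cells at 24 h, where 9.4% of all genes were. Il23a, the interleukin-23 subunit whose receptor uses the Il12rb1 chain, read 0.121 and 0.13 RPKM in WT and 17.1 and 6.21 in Zn4 cells. It passed the filter only through stimulated Zn4 libraries, so its values are given as a description. Lif and Osm, cytokines that signal through gp130, read 3.81 and 4.63 against 27.2 and 23.2, and 1.96 and 2.64 against 9.83 and 6.83 (2.33 ± 0.24 and 1.49 ± 0.20, adjusted p = 0.000269 and 0.000942). Stat5a, which interleukin-7 signalling activates, read at 24 h 22.8 and 22.1 against 75.5 and 44.8 (1.34 ± 0.19, adjusted p = 0.00158), while Jak3, the kinase bound to the common gamma chain, read 43.3 and 44.3 against 27.2 and 31.6 (-0.56 ± 0.12, 0.0119). The Jak3 call ended without either WT 24 h library or without Zn4 24 h replicate 1 (0.0692 to 0.0995). Jak1, a kinase used by the common gamma chain, gp130 and interferon gamma receptors, fell 1.51 ± 0.08 in WT and 1.91 ± 0.08 in Zn4 by 12 h (log2; adjusted p = 1.94e-07 and 4.03e-08). The change of Jak3 from 0 h differed by genotype, by -1.36 ± 0.18 at 12 h and -1.37 ± 0.18 at 24 h (adjusted p = 0.00336 and 0.00304).

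Among 18 negative regulators, 4 were higher and 3 lower in Zn4 at 24 h (list median 0.22), where 9.4% and 9.96% of all genes were called higher and lower. The counts became 3 and 1 without Zn4 24 h replicate 1, and 4 and 1 without either WT 24 h library. Socs2, one of the 4 higher, passed the filter only through the Zn4 24 h libraries and is given as a description. Cish, Socs2 and Socs3 encode feedback inhibitors of cytokine signalling. Cish read 7.15 and 7.07 RPKM in WT against 49.9 and 40.2 in Zn4 (log2 2.50 ± 0.17, adjusted p = 2.58e-05), Socs2 0.424 and 0.392 against 3.77 and 4.77, and Socs3 4.49 and 3.5 against 21.4 and 11.2 (1.74 ± 0.25, 0.00157). Cish and Socs3 were called in each other fit. Both were also higher in resting Zn4 cells, Cish at 3.1 and 2.12 against 6.7 and 5.64 (1.00 ± 0.17, adjusted p = 0.00839) and Socs3 at 28.2 and 26 against 62.9 and 59.6 (1.15 ± 0.25, 0.0289). The Cish call at rest ended without Zn4 0 h replicate 1 (0.0584) and in a fit of only those libraries (0.169), and the Socs3 call without any 1 of the 0 h libraries (0.077 to 0.117). Cish was higher at 12 h as well, at 5.36 and 3.9 against 23.5 and 23.8 (2.14 ± 0.17, 9.13e-05). Other members of the list lay lower in Zn4 at 24 h. Ptpn6 read 158 and 162 in WT against 99.6 and 116 in Zn4, and Ptprc 115 and 116 against 71.1 and 78.1. Both are outside the rule for named genes at 24 h and were chosen after their values were seen.

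Of the 3 genes whose log2 values over the 12 libraries were most like each receptor, those reported here are given with Pearson's r as a description only, since the libraries share the stimulation difference that dominates every pattern. For Il7r they were Kdm5a, Pan3 and Smad4 (0.989 to 0.993), for Il4ra 4930523C07Rik, Phc3 and Pde4d (0.989 to 0.993), and for Il21r Spag9 and Tnks (0.984 and 0.98). For Il6ra they were Oaz1, Acap1 and Ttc28 (0.983 to 0.987), and for Il6st Plekhn1, Gm11521 and Zfp652 (0.989 to 0.993). Il12rb1 was most like Ndufv1, Babam1 and Nudt2 (0.996 each). Ifngr1 was most like Nhsl1, Sgms1 and Rbm33 (0.995 to 0.997), and Ifngr2 like Zkscan14, Clk1 and Cdkn1b (0.995 to 0.997). The lowest of those reported were those of Il12rb2, with Cd80, Pcgf5 and Pter (0.942 to 0.951), and of Il18r1, with Tbc1d4, Gm6910 and H2-Q2 (0.974 to 0.989).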

How the data were processed

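RNA from 12 libraries (6 groups of 2) had been sequenced as stranded, single-end mRNA libraries. The authors deposited RPKM values per gene, and the submitters' processing notes name TopHat2 2.0.12, HTSeq 0.6.1 and the mm10 (GRCm38) build, with no roles given. Of 12892 lines, 7 symbols stood on 2 lines and the first was kept. Every listed gene reached about 1 RPKM in its highest group mean, so genes low in all groups are not analysed here. RPKM were tested as log2(RPKM + 1) with limma 3.58.1 (R 4.3.3): 1 mean per group, all 12 libraries, trended variance, 12726 genes at or above 1 RPKM in 2 libraries or more, Benjamini-Hochberg adjustment within each of 11 comparisons, and a threshold of 0.05. Errors are standard errors, and fold values are ratios of group means. Whole reads were recovered from the RPKM steps for 100% of genes (tolerance 0.02 reads) and used for depth and for limma-voom. The fit was also run on simulated data in which all libraries were given the same spread. That run does not cover groups that differ in spread. Here the standard deviation of the log2 difference between replicates was 0.173 in WT 24 h and 0.301 in Zn4 24 h.

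The receptors and 6 gene lists were chosen with earlier results of these data known. Genes named were all receptors, at most 3 called genes with the greatest log2 difference per list and comparison, and the 3 genes most correlated with each receptor; exceptions are stated, and a few genes are not reported here. Alternatives were a pseudocount of 0.1, no filter, median-ratio scaling, quantile normalization, only the libraries compared, a replicate block, the Y-linked sum as a covariate, limma-voom, and leaving out each library.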

Additional observations from a re-analysis of the deposited data

Results flagged for a closer look

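In 4 receptors the change from 0 h to 24 h differed between genotypes by the limma interaction test on log2(RPKM + 1), which is what singles them out. Ifngr1 fell less in Zn4 than in WT cells, by 1.07 ± 0.17 (SE; adjusted p = 0.00655), and was called in all 21 other fits. Il7r also fell less, by 1.60 ± 0.39 (adjusted p = 0.0356). Il12rb2 rose more in Zn4 cells, by 2.76 ± 0.55 (adjusted p = 0.0182; 1.98 or 3.53 without Zn4 24 h replicate 1 or 2). For Il18r1 the Zn4 response was the more negative, by -1.13 ± 0.27 (adjusted p = 0.0331). The last 3 each lost the call in some fits, which the account of each receptor gives. Il18r1 lost it in most of the other fits, among them a pseudocount of 0.1 (-0.84, adjusted p = 0.176) and limma-voom (-0.81, 0.163).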

How the results depend on the processing

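No receptor changed direction in a way that reversed a call. Of the single-receptor values under the 9 other settings, 935 kept their side of the threshold, 39 passed it newly and 16 lost it; leaving out 1 library gave 1239, 40 and 41. The number of receptors called between 12 h and 24 h in WT cells, 1, became 3 with a pseudocount of 0.1, 2 with quantile normalization, 5 with only the libraries compared, 0 with the Y-linked covariate and 2 with limma-voom. In Zn4 cells that number, 5, became 2 with the Y-linked covariate. With only the libraries compared the genotype counts of 2, 1 and 5 at 0, 12 and 24 h became 1, 5 and 3, and the response counts of 0 and 4 by 12 h and 24 h became 1 and 1. At 12 h the genotype count also became 2 with a pseudocount of 0.1 and 2 with limma-voom. Leaving out 1 library gave 9 to 9 and 9 to 10 receptors for WT at 12 h and 24 h against 0 h, 9 to 10 and 10 to 10 for Zn4, 0 to 3 for WT and 3 to 7 for Zn4 between 12 h and 24 h, 2 to 3, 1 to 3 and 1 to 6 between genotypes at 0, 12 and 24 h, and 0 to 3 and 1 to 7 for the responses; where this leaves 1 library in a group, that library is assumed to vary like the others. Over all genes, median-ratio scaling moved the split between 12 h and 24 h from 2169 higher and 883 lower to 1734 and 1455 in WT, and from 2875 and 1398 to 2319 and 2067 in Zn4 cells.

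Same-numbered libraries of the 2 genotypes correlated in their deviations at r = 0.61, 0.192 and 0.0429 at 0, 12 and 24 h. The numbers were not taken as pairs in the main fit, although those of 0 h deviated together. The source of this was not tested. With a replicate block the count between 12 h and 24 h in WT became 3, the genotype count at 12 h became 2 and the response count by 12 h became 1. A replicate block at each time, chosen after seeing the data, gave 3, 4 and 4. It also took the genotype count at 0 h from 2 to 3, with Il7r lower in resting Zn4 cells (log2 -0.32, adjusted p = 0.0351). Over all genes its calls between genotypes at 0 h were 1343, against 728 in the main fit. With the replicate block, Il7r passed in WT between 12 h and 24 h (adjusted p = 0.046), as did Il4ra between genotypes at 24 h (0.0212) and in its response by 24 h (0.0251). With the block at each time these were 0.000518, 0.0181 and 0.0216. The fewest reads behind a receptor value were 32 and 45, for Ifngr2 in Zn4 cells at 12 h.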

Other observations

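Ratios of paired chains within each library are given as values, and their size depends on the gene lengths used. Il6st exceeded Il6ra by 1.85 and 1.91 times in resting WT cells, 2.76 and 2.58 at 12 h, and 1.92 and 2.1 at 24 h, against 1.04 and 1.55, 2.44 and 2.04, and 2.93 and 1.47 in Zn4 cells. Il2rg over Il21r was 0.537 to 0.713 in resting WT cells and 1.79 to 2.14 in stimulated WT cells, against 0.393 to 0.505 and 0.601 to 1.16 in Zn4 cells. Il2rg over Il4ra was 4.92 to 7.35 in stimulated WT cells, 4.44 to 4.54 in Zn4 cells at 12 h, and 2.33 to 3.18 in Zn4 cells at 24 h.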
